A study of Arabidopsis thaliana with 16 samples.

Results

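The transcripts described here are those of 6 nuclear genes for proteins of the plastid ribosome, measured in the ppi2 mutant of Arabidopsis thaliana and in its wild type (WT). They are L34 (AT1G29070), L29 (AT5G65220), L17 (AT3G54210), L5 (AT4G01310), S10 (AT3G13120) and S6 (AT1G64510), where L marks the large and S the small ribosomal subunit. A gene was taken when a probe of the array listed it as its only gene, which gave 1 probe for each of the 6 genes. The array had 691 genes measured in this way and 3439 probes in all. The rule uses the probe annotation and no measured value, though the 6 genes were chosen with earlier results of these data known.

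Total RNA of 8 ppi2 samples and 8 WT samples was hybridised to an expression array. Both genotypes were in the ecotype Wassilevskija, and the labels describe ppi2 as defective in the import of chloroplast precursor proteins. No tissue, age, growth condition or batch is named, and none of 9 marker genes for leaf-type or non-green plastids had a probe of its own, so the material could not be checked by markers. The deposited values were linear intensities that ended at 100 in every sample. Sample medians lay between 0.168 and 0.269 in ppi2, between 0.198 and 0.212 in WT samples 1 to 4, and between 0.0976 and 0.124 in WT samples 5 to 8. Samples with consecutive numbers resembled each other more than any others of their genotype and were averaged, which left 4 pairs per genotype (n = 4 each in all tests). Nothing in the labels says that the pairs came from separate plants. The p-values therefore reflect the spread from pair to pair, which may be technical.

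Plastids carry their own ribosomes of the bacterial type, which translate the proteins still encoded in the plastid genome, among them core subunits of the photosystems and the large subunit of Rubisco. Most of the proteins of that ribosome are encoded in the nucleus, made in the cytosol as precursors and imported through the translocons of the envelope. In ppi2 the receptor Toc159 of the outer translocon is missing, and its seedlings are known to be albino. The comparison asks whether transcripts of these imported proteins differ in level when import is impaired.

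Of the 6 transcripts, 1 fell in ppi2 (L34), 0 rose and 5 did not pass the test. L34 was 3.93-fold lower in ppi2. The log2 difference, always ppi2 minus WT, was -1.97 for L34, 1.69 for L29, -0.60 for L17, -0.25 for S10, -0.17 for S6 and -0.16 for L5. Differences were tested with limma at an adjusted p of 0.05, with the Benjamini-Hochberg adjustment made across the 3439 probes. By this test 28.6% of all probes differed between the genotypes, 14.2% higher and 14.4% lower in ppi2. A count of 1 in 6 is thus no larger than that background. At an unadjusted p under 0.05, likewise, 1 fell and 0 rose. At least 28.6% of all probes passed that looser cut, since every probe past the adjusted one does. The median log2 difference of the 6 transcripts was -0.21, against 0 for all probes. Of the 6 differences 5 were negative, against 49.3% of all probes. The scaling held the median of all probes near 0, and 244 probes at the floor in every sample counted as not negative. S6, 1 of the 5, was set by the floor. In the values as deposited 3 of the 5 were positive, L17 (0.24), S10 (0.031) and L5 (0.79). The median of all probes was 0.30 there, above L17 and S10 and below L5. In RNA of whole samples, fewer cells of a type and less RNA per cell cannot be told apart.

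**Figure D1:**
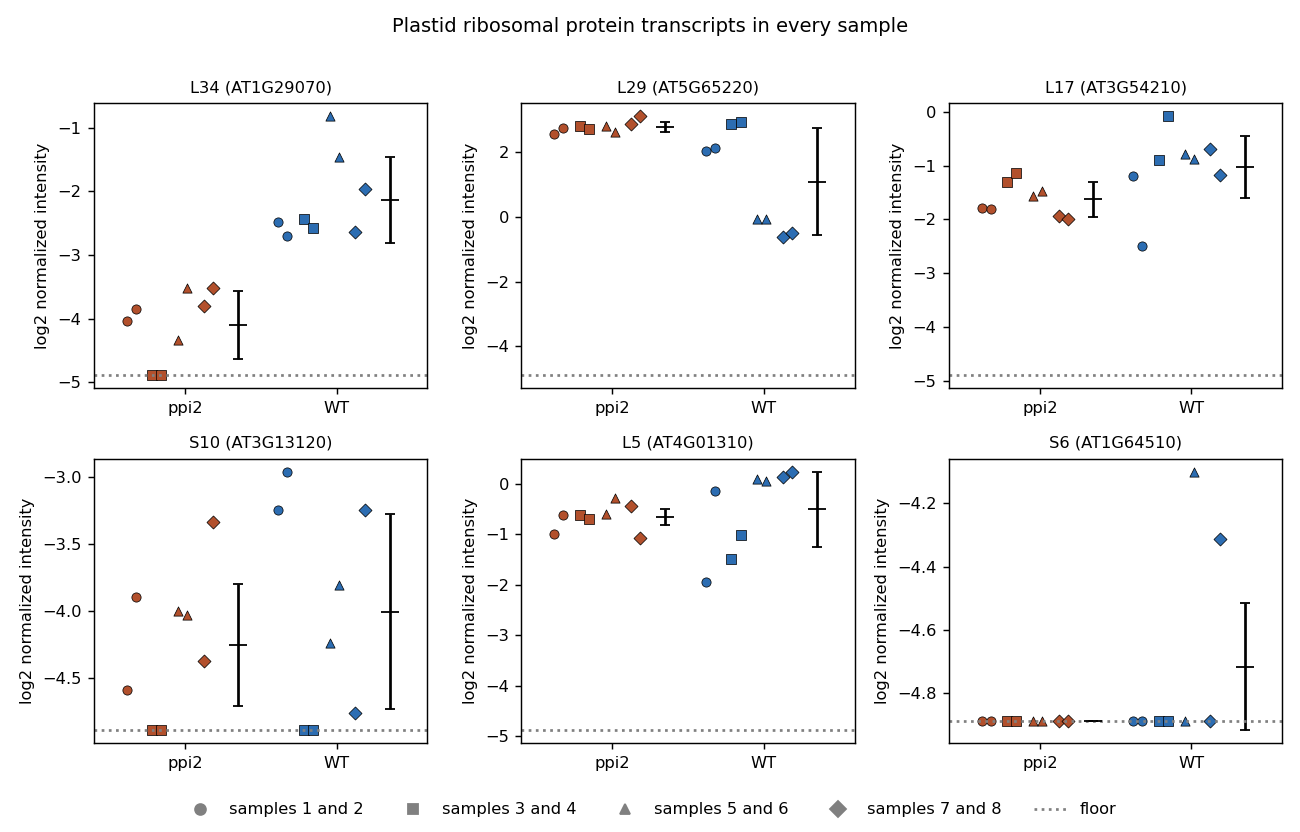
Log2 normalized intensity of the 6 plastid ribosomal protein transcripts in each of the 8 ppi2 and 8 WT samples. Symbols mark the pair of samples, black bars the mean ± SD of the 4 averaged pairs, and the dotted line the floor at -4.89. All L34 values of ppi2 lie below all of WT, while L29 in WT splits into samples 1 to 4 near the ppi2 level and samples 5 to 8 far below it.

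L34 is a small protein of the large subunit. Its normalized intensity was 0.0338 at the lowest, 0.0650 at the median and 0.0874 at the highest in the 8 ppi2 samples, against 0.154, 0.182 and 0.568 in the 8 WT samples. Every ppi2 sample lay below every WT sample, and the samples of the genotypes did not overlap in 21.2% of all probes either. After averaging, the 4 ppi2 pairs stood at log2 levels of -3.95, -4.89, -3.93 and -3.66, and the 4 WT pairs at -2.59, -2.51, -1.14 and -2.29. The pairs did not overlap, which was also the case in 32.2% of all probes. The log2 difference was -1.97 ± 0.41 (SE, n = 4 pairs per genotype, limma adjusted p = 0.0132), with a 95% interval of -2.95 to -0.997. An exact two-sided permutation test over the 8 pairs gave p = 0.0286, the smallest that 4 against 4 allows. Of all probes, 5.58% had a lower difference than L34.

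The mutant's L34 signal was close to the lower end of the scale. Intensities below 0.0338, the 5th percentile of the positive ones, were raised to it as a floor. Samples 3 and 4 of ppi2 were both at this floor, with 1 of them listed at 0. The size of the fall therefore moved with the floor. It was 5.18-fold with the floor at the 1st percentile (limma adjusted p = 0.0437) and 1.91-fold, no longer past the threshold, with the floor at the 25th percentile (limma adjusted p = 0.0860). In the deposited intensities, before any scaling, L34 ranged from 0 to 0.112 in ppi2 and from 0.0851 to 0.269 in WT. There 7 of the 8 WT samples exceeded the highest ppi2 sample, the exception being WT sample 7. The difference in those values was -1.52 (limma adjusted p = 0.0382).

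L29 is a protein of the large subunit that in bacteria lies at the exit of the peptide tunnel. Its normalized intensity was 5.999 at the lowest, 6.89 at the median and 8.69 at the highest in ppi2, against 0.657, 2.54 and 7.74 in WT. The ppi2 pairs were tightly grouped, at log2 levels of 2.67, 2.77, 2.73 and 3.01, whereas the WT pairs were at 2.09, 2.91, -0.059 and -0.55. WT pair 2 thus lay among the ppi2 pairs, WT pair 1 somewhat below all of them and WT pairs 3 and 4 far below. The genotypes overlapped through WT pair 2 alone. The log2 difference was 1.69 ± 0.79 with a 95% interval of -0.20 to 3.59 (limma adjusted p = 0.162). The same split was present before scaling. L29 had deposited intensities of 5.81 to 9.35 in ppi2, 4.10 to 10.1 in WT samples 1 to 4 and 0.251 to 0.460 in WT samples 5 to 8.

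L17, a large-subunit protein that in bacteria also lies close to the tunnel exit, had a normalized intensity of 0.251 at the lowest, 0.315 at the median and 0.452 at the highest in ppi2, against 0.179, 0.541 and 0.943 in WT. Its 4 ppi2 pairs, at log2 levels of -1.80, -1.22, -1.51 and -1.96, were all below the WT mean of -1.02. WT pair 1, at -1.84, lay among them, so the groups overlapped, while WT pairs 2, 3 and 4 were at -0.49, -0.83 and -0.94. The log2 difference was -0.60 ± 0.31 with a 95% interval of -1.35 to 0.15 (limma adjusted p = 0.208). Without WT pair 1 it was -0.87 and passed (limma adjusted p = 0.0302). The 2 samples of that WT pair differed from each other by 1.30 on the log2 scale, with normalized intensities of 0.439 and 0.179.

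L5 binds the small ribosomal RNA of the large subunit in bacteria. Its normalized intensity was 0.476 at the lowest, 0.652 at the median and 0.816 at the highest in ppi2, against 0.259, 0.970 and 1.18 in WT. The ppi2 pairs, at log2 levels of -0.81, -0.66, -0.45 and -0.75, lay between the WT subsets, with WT pairs 1 and 2 lower, at -1.05 and -1.26, and WT pairs 3 and 4 higher, at 0.075 and 0.18. The 2 samples of WT pair 1 differed by 1.81 on the log2 scale, with normalized intensities of 0.259 and 0.906. The second of them was above every ppi2 sample. The log2 difference was -0.16 ± 0.36 with a 95% interval of -1.02 to 0.71 (limma adjusted p = 0.821). Its sign depended on the scaling. In the values as deposited L5 was 0.79 higher in ppi2 (limma adjusted p = 0.0170), where the median of all probes was 0.30 higher, and after centring on sample medians it was 0.11 higher (limma adjusted p = 0.848).

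**Figure D2:**
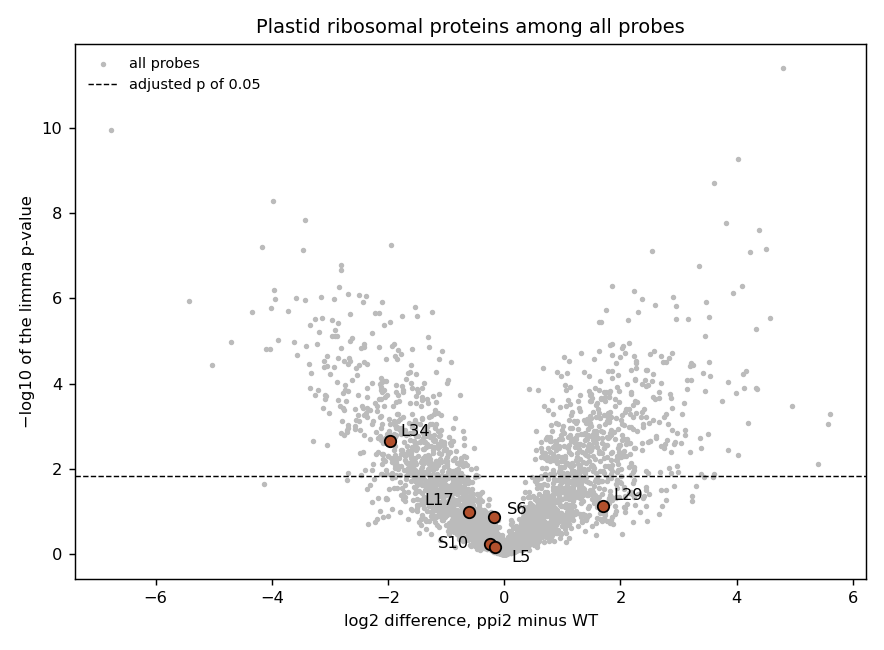
Log2 difference, ppi2 minus WT, against −log10 of the limma p-value for all 3439 probes (grey) and the 6 plastid ribosomal protein transcripts (red). Of the 6, L34 alone lies above the dashed line that marks an adjusted p of 0.05, and L29 lies far to the right but below that line.

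The small subunit was represented by S10 and S6, both dim. S10 belongs to the head of the small subunit, and its bacterial counterpart also takes part in transcription antitermination. Its normalized intensity was 0.0338 at the lowest, 0.0548 at the median and 0.0989 at the highest in ppi2, against 0.0338, 0.0624 and 0.129 in WT. In each genotype 2 of the 8 samples were at the floor, samples 3 and 4 in both. The log2 difference was -0.25 ± 0.41 with a 95% interval of -1.22 to 0.73 (limma adjusted p = 0.721), and the ranges overlapped. Without WT pair 1, the brightest WT pair at a log2 level of -3.10, the difference was 0.053. It was also above 0 after cyclic loess, at 0.32, and in the values as deposited, at 0.031, where all probes had a median difference of 0.30.

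S6, which in bacteria binds the small-subunit RNA together with S18, gave almost no signal. It was listed at 0 in 7 of 8 ppi2 samples and 6 of 8 WT samples. The exceptions were ppi2 sample 8, with a deposited intensity of 0.0106, and WT samples 6 and 8, with 0.0404 and 0.0287. All ppi2 samples were at the floor, as were 6 of the WT samples, so no fold is given. The value of -0.17 on the log2 scale (limma adjusted p = 0.258) was set by the floor. Whether the zeros are spots below background or failed estimates is not known.

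The WT samples fell into subsets, and the 6 transcripts did not share one pattern across them. In L29 the mean of WT pairs 1 and 2 was 6.98-fold above that of WT pairs 3 and 4 in normalized intensity and 18.6-fold above it as deposited, a step larger than in 97.1% of all probes. L5 ran the other way in normalized intensity and was 2.43-fold higher in WT pairs 3 and 4, a step larger than in 78.5% of probes. As deposited, the L5 medians did not show this step, at 0.489 in WT samples 1 to 4 and 0.461 in WT samples 5 to 8. L34 was 1.78-fold higher in WT pairs 3 and 4 in normalized intensity, mostly from WT pair 3. Its deposited medians did not show this step either, at 0.189 in WT samples 1 to 4 and 0.160 in WT samples 5 to 8. Deposited values, the 18.6-fold of L29 included, also carry the lower sample medians of WT samples 5 to 8. In S10 the mean of pairs 3 and 4 differed from that of pairs 1 and 2 by -0.013 on the log2 scale. The median absolute step over all probes was 0.64 on the log2 scale, and 3 of the 6 transcripts exceeded it. The part of these subsets, or of the lower sample medians of WT samples 5 to 8, in the results was not tested.

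In the normalized values the 2 subsets gave different answers for L29 and L5 and the same direction for L34. Against WT samples 1 to 4 alone, 1 of the 6 transcripts passed the test, where 29.2% of all probes did. That was L34, at -1.56 (limma adjusted p = 0.0406), while L29 was at 0.29 (limma adjusted p = 0.490) and L5 at 0.48 (limma adjusted p = 0.0522). Against WT samples 5 to 8 alone, 4 of the 6 passed, where 42.2% of all probes did. These were L34 at -2.39 (limma adjusted p = 0.0187), L29 at 3.09 (limma adjusted p = 0.000525), L5 at -0.80 (limma adjusted p = 0.00700) and S6 at -0.34 (limma adjusted p = 0.00467), the last again set by the floor. L17 had values of -0.46 against WT samples 1 to 4 and -0.74 against WT samples 5 to 8 and passed in neither (limma adjusted p = 0.532 and 0.0591). These fits rest on 2 WT pairs each and share the ppi2 pairs. Whether the ppi2 differences from the 2 subsets differ was not tested. As deposited, the L5 medians were 0.489 in WT samples 1 to 4 and 0.461 in WT samples 5 to 8, both below the 0.830 of ppi2. Those values are unscaled, and the sample medians of all probes were also lower in WT samples 5 to 8 than in ppi2.

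**Figure D3:**
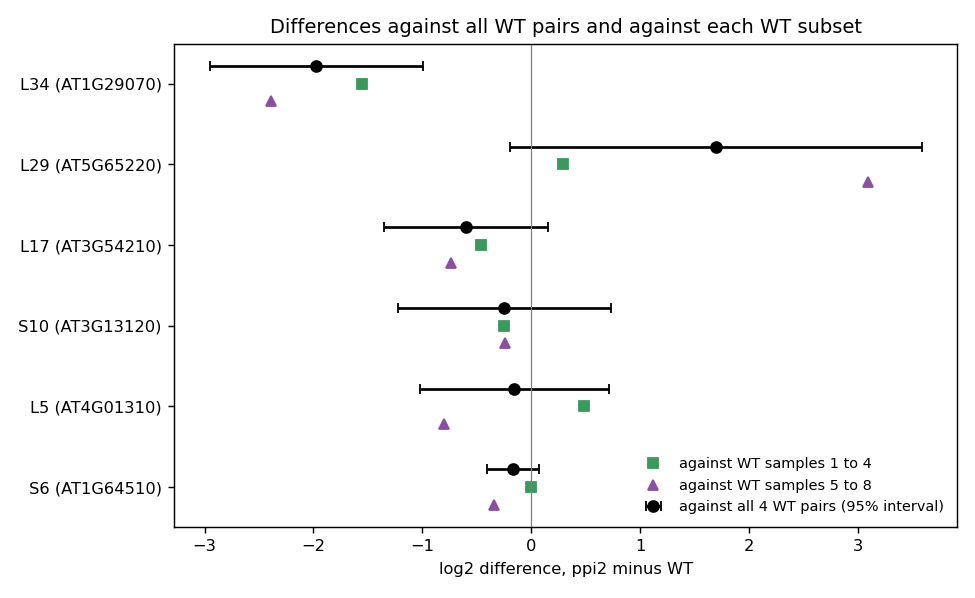
Log2 difference, ppi2 minus WT, of the 6 transcripts against all 4 WT pairs (black, with the 95% interval from limma), against WT samples 1 to 4 (green squares) and against WT samples 5 to 8 (purple triangles). L34 lies below 0 against each, L29 lies at 0.29 against the one subset and 3.09 against the other, and L5 lies on opposite sides of 0. The values are normalized, and as deposited the L5 median of ppi2 was above that of each subset. Deposited values are unscaled, with sample medians of 0.0976 to 0.124 in WT samples 5 to 8 and 0.168 to 0.269 in ppi2.

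The spread between pairs was smaller in ppi2 than in WT for L34, L29, L17, L5 and S10, while that of S6 in ppi2 was set by the floor. The SD on the log2 scale was 0.15 in ppi2 and 1.66 in WT for L29, 0.16 in ppi2 and 0.75 in WT for L5, and 0.32 in ppi2 and 0.57 in WT for L17. For L34 and S10 it was 0.54 and 0.45 in ppi2, against 0.67 and 0.73 in WT. A smaller SD in ppi2 was also found in 85.4% of the 3195 probes above the floor in any sample, so these transcripts followed the array as a whole in this.

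Because the proteins enter one particle in fixed proportion, the transcripts were also compared with each other within a pair, as the change of their log2 ratio between genotypes. This was done as a description without a test, for the genes other than S6, whose ppi2 values all lay at the floor. S10 was kept, although pair 2 of each genotype was at the floor for it. L34 was at the floor in ppi2 pair 2, which set the lower end of its ppi2 ranges below. The log2 ratio of L34 to L29 differed by -3.67 between ppi2 and WT. Around the WT mean it ranged from -4.43 to -3.38 in ppi2 and from -2.19 to 2.15 in WT. The ratio of L34 to L5 differed by -1.82, with ranges of -2.60 to -1.29 in ppi2 and -0.86 to 0.41 in WT. Neither ratio overlapped between the genotypes, and L34 on its own did not either. The ratio of L34 to S10 differed by -1.73 and did not overlap, though both transcripts were at the floor in ppi2 pair 2. That of L34 to L17 differed by -1.38 and did overlap, with ranges of -2.56 to -0.59 in ppi2 and -0.91 to 0.80 in WT. Without L34, the ratio of L29 to L17 differed by 2.29 and did not overlap. The ratio of L17 to L5 differed by -0.44 and overlapped, with ranges of -0.69 to -0.048 in ppi2 and -0.61 to 1.28 in WT. Of all 10 ratios, 4 did not overlap, among them 3 of the 4 with L34. How often ratios of other genes separate was not tested.

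**Figure D4:**
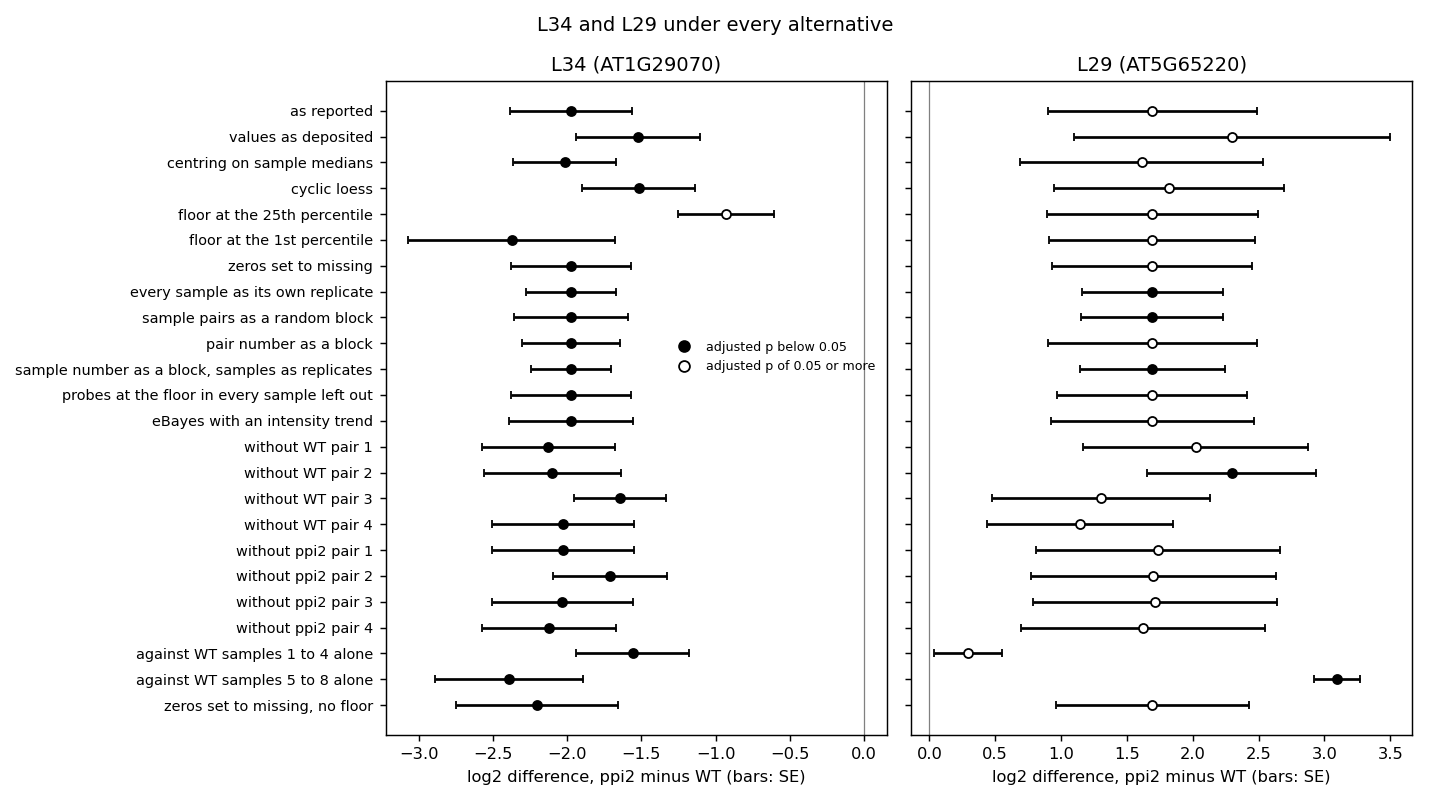
Log2 difference, ppi2 minus WT, of L34 (left) and L29 (right) as reported and under 23 other ways of processing, with SE as bars and filled points for a limma adjusted p below 0.05. L34 stays below 0 throughout and misses the threshold with the floor at the 25th percentile, whereas L29 ranges from 0.29 to 3.09. Fits that change only replicates, blocks, variance trend or probe set cannot move the difference itself.

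L34 was lower in ppi2 in all 23 alternative fits, with differences from -2.39 to -0.93, and missed the threshold in 1, the floor at the 25th percentile. Fits that changed only replicates, blocks, variance trend or probe set could not move the difference, -1.97 for L34 and 1.69 for L29. The signs in those fits were thus fixed in advance. Leaving out any 1 pair gave -2.13 to -1.64, with limma adjusted p-values of 0.0155 to 0.0358. L29 was higher in ppi2 in all 23, from 0.29 to 3.09, and passed in 5. In 3 of these the single samples entered the fit, with every sample as its own replicate (limma adjusted p = 0.0169), with a random block for the sample pairs (limma adjusted p = 0.0236) and with the sample number as a block (limma adjusted p = 0.0345). Consecutive samples correlated at 0.959 to 0.979 in ppi2 and 0.902 to 0.938 in WT across probes, so the first and the last of these 3 fits count near-repeats as independent. In the other two, WT pairs were left out, either WT pair 2 (limma adjusted p = 0.0428) or WT samples 1 to 4. The number of the 6 transcripts that passed was 2 in the values as deposited (25.6% of all probes), 2 with every sample as its own replicate (47.0%), 2 with the random block (35.4%) and 2 without WT pair 1 (29.1%) or WT pair 2 (31.6%). It was 3 with the sample number as a block (50.0%) and 0 with the floor at the 25th percentile (23.8%), where 1 passed at an unadjusted p under 0.05. At least 23.8% of all probes passed that looser cut too.

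Of 41 nuclear genes listed for plastid ribosomal proteins, the 6 above were the ones with a probe of their own. Of 24 genes for the assembly of this ribosome and for plastid RNA processing 2 were measured, of which 0 rose, 0 fell and 2 did not pass. AT5G14910, a plastid protein that binds the small subunit in Arabidopsis, had log2 levels of -0.30, -0.60, -0.68 and -0.95 in the ppi2 pairs and -0.58, -1.10, -0.49 and -1.13 in the WT pairs. The groups overlapped, and the difference was 0.19 ± 0.21 with a 95% interval of -0.30 to 0.69 (limma adjusted p = 0.538). AT5G46420, of the RimM family of ribosome maturation factors known from bacteria, was at the floor in 3 of 4 ppi2 pairs and 3 of 4 WT pairs. Of 13 plastid translation factors and 21 genes of plastid transcription, 0 had a probe of their own. Translation factors were listed on 4 probes that also listed other genes, and these were not used.

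The measured genes whose profiles were nearest to those of L34 and L29 were found by the root-mean-square difference of log2 levels over the 8 pairs, each gene centred on its own mean. Among 551 candidate genes the median difference was 1.30 from L34 and 1.48 from L29. Nearest to L34 were AT3G51510 (0.32), AT4G39760 (0.34) and AT2G21720 (0.36). All were lower in each ppi2 pair than in any WT pair, as were 15.7% of all probes, and had their highest level in WT pair 3, as in L34. Nearest to L29 were AT5G26850, AT1G73430 and AT5G42680, each at 0.39, and each had its lowest levels in WT pairs 3 and 4. Those steps between the WT subsets, at -3.05, -2.81 and -1.91 on the log2 scale, compare with -2.80 in L29. Since the genes were chosen for their likeness over these same pairs, such shared features follow from the choice. The reference table gives no symbol other than the locus for any of the 6.

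**Figure D5:**
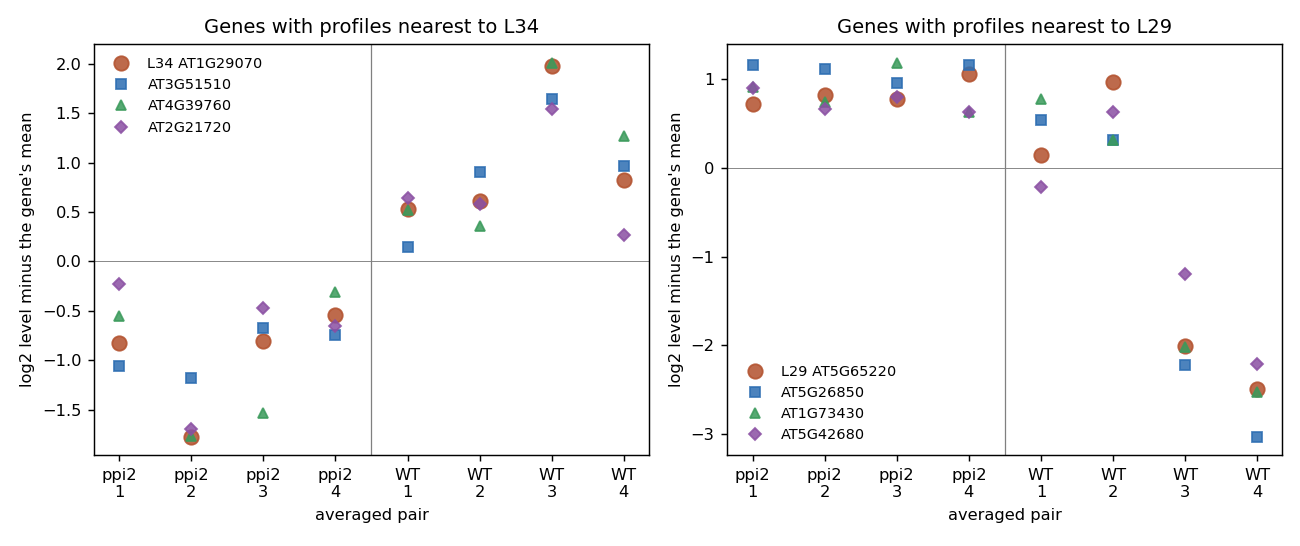
Log2 level minus the gene's own mean in the 4 ppi2 and 4 WT pairs for L34 and L29 and the 3 genes nearest to each. On the left the genotypes separate and WT pair 3 is highest, and on the right WT pairs 3 and 4 stand apart from the other 6 pairs.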

How the data were processed

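RNA of 8 ppi2 and 8 WT samples was measured on an array. The authors' deposited table holds 1 intensity per probe and sample for 3439 probes, on a linear scale ending at 100, while the sources used here do not give its quantification or background correction. Depth does not apply to arrays, and the number of arrays limits the precision. Columns were matched by sample, with 0 left unmapped. The platform annotation gave 1 gene for 692 probes, several for 870 and none for 1877, and 690 of the 692 matched the RefSeq table of TAIR10.1, used for names only.

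Sample medians of positive values spanned 1.70 on the log2 scale, so intensities were quantile-normalized, floored at 0.0338 (log2 -4.89) and log2-transformed. Consecutive samples were averaged. Differences were tested over all probes with limma 3.58.1 in R 4.3.3 (lmFit, eBayes, 6 residual degrees of freedom) with Benjamini-Hochberg adjustment. The fit was tested on simulated data. Alternatives covered scaling, floor, zeros, averaging, blocks, dim probes, variance trend, each left-out pair and each WT subset.

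Named genes are the 6 members, the measured genes of the fixed lists and the 3 profiles nearest to L34 and L29 among genes at the floor in at most 2 pairs. Members and lists were chosen with earlier results of these data known. A planned search of gene descriptions found 0 further genes, since the table holds few.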

Additional observations from a re-analysis of the deposited data

Results flagged for a closer look

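AT5G46420, of the RimM family, had 1 pair far from the other 3 in each genotype. It was at a log2 level of -3.84 in ppi2 pair 1 and at -3.54 in WT pair 1, while the other pairs of both genotypes were at the floor of -4.89. Since those are tied at the floor, any pair above it is marked. Over the 28 groups of 4 pairs examined, chance would mark about 1 in 20, a rate that does not hold for groups with ties.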

How the results depend on the processing

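L34 was lower in ppi2 in all 23 alternative fits, though fits that changed only replicates, blocks, variance trend or probe set could not move the difference. It missed the threshold in 1 of the 23, at -0.93 with the floor at the 25th percentile. There limma called 0 of the 6 transcripts, against 23.8% of all probes. At an unadjusted p under 0.05, a looser cut that at least as many probes pass, it called 1 of the 6. In the values as deposited 2 of the 6 passed (25.6% of all probes) and 3 turned in sign, L17 to 0.24, S10 to 0.031 and L5 to 0.79. The median of all probes was 0.30 there, so L17 and S10 still lay below it and L5 above it. In that setting 647 probes rose while 235 fell, in place of 488 and 496. L5 also turned after centring on sample medians (0.11) and against WT samples 1 to 4 (0.48). S10 turned after cyclic loess (0.32), as did AT5G14910 (-0.10) and AT5G46420 (0.17), the last also with the floor at the 1st percentile (0.072) and against WT samples 5 to 8 (0.26). Against WT samples 5 to 8, 4 of the 6 passed (42.2% of all probes), among them L29 (3.09), L5 (-0.80) and S6 (-0.34), the last set by the floor. With every sample as its own replicate 2 of the 6 and 1616 probes (47.0%) passed. With the pairs as a random block 2 of the 6 passed (35.4% of all probes), in both fits L34 and L29 (1.69). Leaving out 1 pair at a time gave 1 to 2 calls among the 6, where 19.9% to 31.6% of all probes passed. The ranges of the differences were -2.13 to -1.64 for L34, 1.14 to 2.30 for L29, -0.87 to -0.42 for L17, -0.54 to 0.053 for S10, -0.41 to 0.075 for L5 and -0.34 to 0.26 for AT5G46420. The causes were not tested.

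ppi2 and WT share sample numbers. Deviations of same-numbered pairs from their group means correlated across probes at 0.38, 0.31 and 0.33 for numbers 1, 2 and 4 and at 0.031 for number 3. The labels give no shared batch and number 3 showed almost no correlation, so a pairing was not assumed, although 7 of the 8 pairs correlated best with their own number, a hint of one from the data and not from the design. With the pair number as a replicate block L34 passed (limma adjusted p = 0.0295), as did 846 probes, while L29 (limma adjusted p = 0.205) and L17 (limma adjusted p = 0.119) did not. With the sample number as a replicate block and every sample as its own replicate, L34, L29 (1.69) and L17 (-0.60) passed, 3 of the 6, as did 1719 probes (50.0%), in a fit that counts near-repeat samples as independent. With zeros missing and no floor, a setting chosen after seeing the data, L34 was at -2.20 and passed. Dim signal limits L34 in ppi2, S10 and S6.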
